A study of Homo sapiens with 15 samples.

Results

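The genes described are 34 genes of glycolysis, of lactate and pyruvate handling and of the pentose phosphate pathway, chosen by name from 61248 loci measured by RNA sequencing of the lung adenocarcinoma cell line NCI-H1975, which is of human origin and long established. The cells formed 5 groups of 3 libraries: almonertinib, a drug that blocks the kinase of the receptor EGFR; EGF, a growth factor that activates EGFR; siEGFR, a small interfering RNA against EGFR; siNC, a negative-control small interfering RNA; and control. All groups are the same cell line, and no genotype other than the line is given. Dose, treatment time and what the control cells received are not given in the sources used here, nor is whether replicates were separate cultures, so a p-value here reflects library-to-library spread that may be only technical. Of the 34 genes, 13 belong to glucose entry and the upper steps of glycolysis, 6 to the lower steps, 8 to lactate and pyruvate and 7 to the pentose phosphate pathway. A filter on low values (1 FPKM or more in 3 or more of the 15 libraries, FPKM being fragments scaled by gene length and library total) passed 33 of the 34. TIGAR did not pass and is given by level only.

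Glycolysis splits glucose into pyruvate in a chain of cytosolic steps. Glucose enters through SLC2A transporters, hexokinases trap it as glucose 6-phosphate, and phosphofructokinase commits it to breakdown. The lower steps, from GAPDH to pyruvate kinase, return ATP. Lactate dehydrogenase then reduces pyruvate to lactate, which leaves through SLC16A transporters, or the mitochondrial pyruvate carrier and pyruvate dehydrogenase take pyruvate into the citric acid cycle. The pentose phosphate pathway branches off at glucose 6-phosphate: its oxidative arm (PGLS, PGD) makes NADPH and its non-oxidative arm (RPIA, RPE, TKT, TALDO1) interconverts sugars and makes ribose for nucleotides. Many tumour cells run glycolysis to lactate even with oxygen present, and several steps exist as isoform genes with different tissue use.

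Read totals ran between 18009903 and 34908302 per library, and 27774 to 31109 loci had a value above 0. EGFR, the target of the siRNA, was at 29.9, 28.6 and 28.9 FPKM with siEGFR, against 49.4, 49.4 and 49.8 FPKM with siNC. Its log2 fold change was -0.75 with siEGFR against siNC, but 1.00 with siNC against control. The siRNA thus lowered EGFR from a level above that of control cells, and siEGFR was not tested against control. Against control the log2 fold change of EGFR was -0.52 with almonertinib and 0.05 with EGF. The libraries control 1 and almonertinib 3 stood apart from their groups, and the counts below are also given without them where that moves a count by more than 1.5 times. The summed level of MALAT1 and NEAT1, 2 long nuclear RNAs listed as a check of RNA composition, was 75.8 to 108 FPKM with almonertinib, 55.3 to 72.6 with EGF, 45.4 to 47.6 with siEGFR, 39.2 to 44.2 with siNC and 65.0 to 125 FPKM in control. All 5 epithelial markers passed the filter, and the list summed to 894 to 1008 FPKM with almonertinib, 879.7 to 1031 with EGF, 843 to 854 with siEGFR, 799.7 to 826 with siNC and 879 to 1055 FPKM in control. These sums hide changes of single markers. Their log2 fold changes against control ran from -0.50 to 0.03 with almonertinib, -1.09 to 0.13 with EGF and -0.81 to 2.26 with siNC. With siEGFR against siNC they ran from -0.78 to 0.28. The 4 endothelial markers summed to 0.590 to 3.80 FPKM over all libraries. Of 5 fibroblast markers COL1A2 and PDGFRB passed and 3 stayed under 1 FPKM in every library; the list summed to 349 to 373 FPKM with almonertinib, 189 to 211 with EGF, 180 to 182 with siEGFR, 130 to 137 with siNC and 331 to 345 FPKM in control. Of 5 leukocyte markers only CD14 passed, and the list summed to 35.2 to 41.7 FPKM with almonertinib, 36.0 to 39.1 with EGF, 3.97 to 5.08 with siEGFR, 7.38 to 8.05 with siNC and 30.7 to 40.6 FPKM in control. The part of these differences in the results below was not tested. All groups are the same cell line, and in bulk RNA fewer cells that express a marker and less RNA per cell cannot be told apart.

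FPKM is per length, so levels can be set side by side between genes, but only roughly. The gene length behind the values was within 5% of all exon bases in the GENCODE v29 annotation for 27 of the 34 genes. It was 10680 bases for GPI and 8571 for PKM. Where cells express a shorter transcript the level is understated, and how far this differs between genes was not tested. GAPDH was highest of the 34, at 1569, 1970.3 and 1729 FPKM with EGF and 1075, 1563 and 1305 FPKM in control. In every one of the 15 libraries 31 of the 34 genes reached 1 FPKM, 21 reached 10 FPKM and 5 reached 100 FPKM. The genes below 1 FPKM in some library were LDHB, PDK1 and TIGAR. By group mean, EGF cells held the highest level of 17 genes, siEGFR cells of 9, siNC cells of 5, almonertinib cells of 3 and control cells of none. Almonertinib cells held the lowest level of 21 genes, EGF cells of 1, siEGFR cells of 2, siNC cells of 4 and control cells of 6. The levels of all genes in all libraries are drawn in pathway order.

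**Figure D1:**
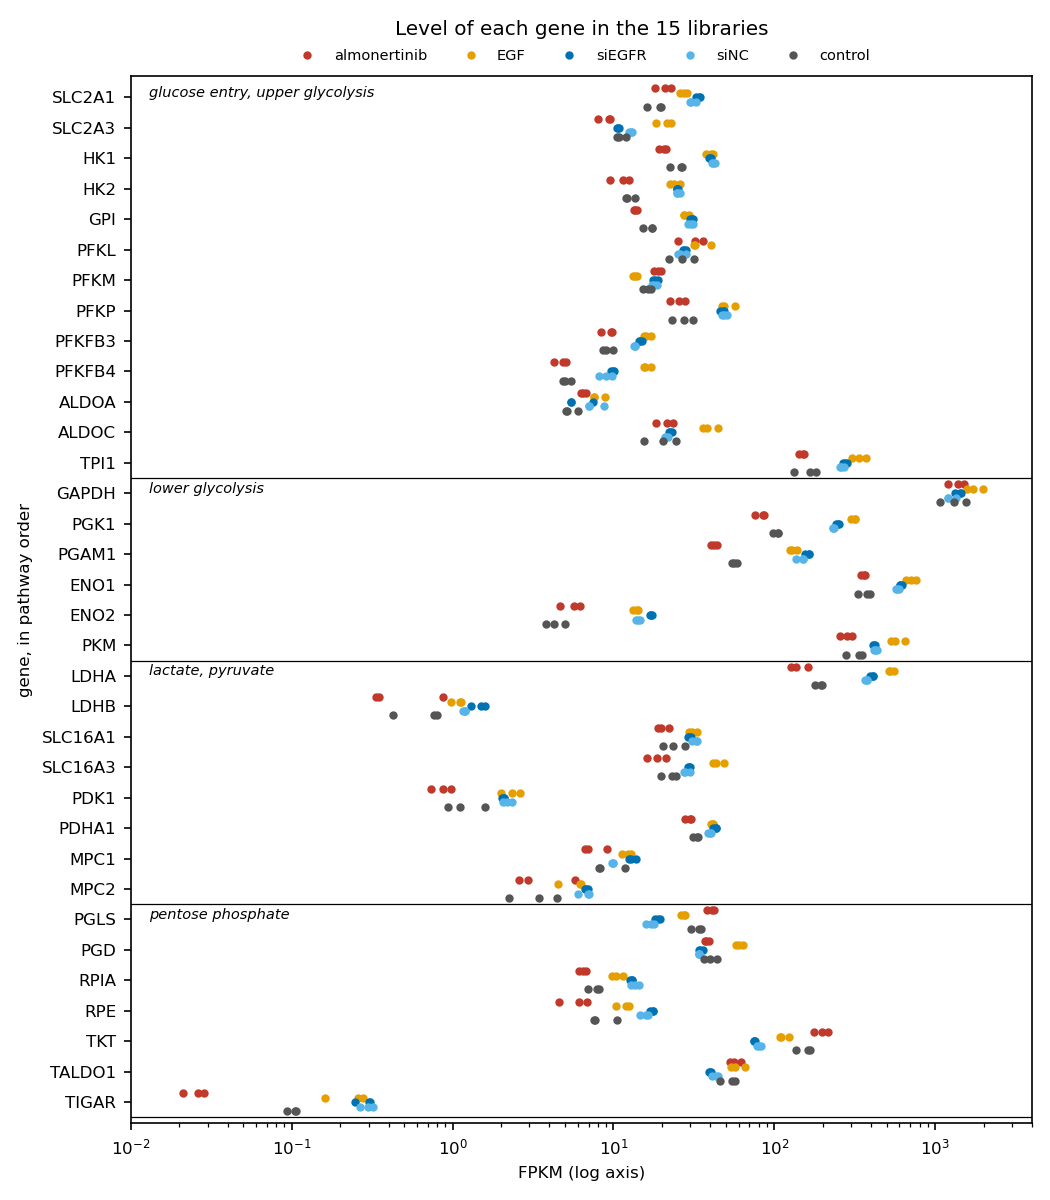
Level of each of the 34 genes (rows, in pathway order, with lines between the 4 branches) in FPKM on a log axis, with 1 point per library and 3 libraries per group. EGF, siEGFR and siNC points lie to the right of control for most glycolytic genes, for example PGK1 at 302 to 318 FPKM with EGF, while TKT and PGLS show the opposite order for the siRNA groups.

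EGF raised the glycolytic genes together. Of the 33 genes tested, 29 rose and 3 fell against control, while 22.0% of all 14999 tested loci rose and 27.3% fell, 49.3% in all (limma on log2(FPKM + 1), Benjamini-Hochberg adjusted p under 0.05 over all tested loci). Changes here and below are log2 fold changes on that scale, given ± the standard error of the fit. The median change was 0.63 for the 33 genes and -0.04 for all tested loci. By branch, 12 of 13 upper glycolytic genes rose and PFKM fell, all 6 lower glycolytic genes rose, and all 8 lactate and pyruvate genes rose. The pentose phosphate branch was mixed: PGD, RPIA and RPE rose, TKT and PGLS fell, and TALDO1 did not pass. The 3 libraries with EGF lay wholly above the 3 in control for 27 genes and wholly below for 3, shares that 22.3% and 28.8% of all tested loci reached. Of the 29 increases, 23 passed under all 25 alternative settings, and of the 3 decreases only that of TKT did. The 6 that lost the call in some settings were PFKL, GAPDH, LDHB, MPC1, MPC2 and RPE. Of all EGF calls, 44.7% were increases, and 57.8% after median-ratio scaling. Under that scaling PFKM (-0.13) and PGLS (-0.16) no longer passed, and 29 genes rose and 1 fell. The fibroblast marker list was lower with EGF than in control, as given above, and its part in these counts was not tested. The comparisons of almonertinib, EGF and siNC with control all use the same 3 control libraries.

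**Figure D2:**
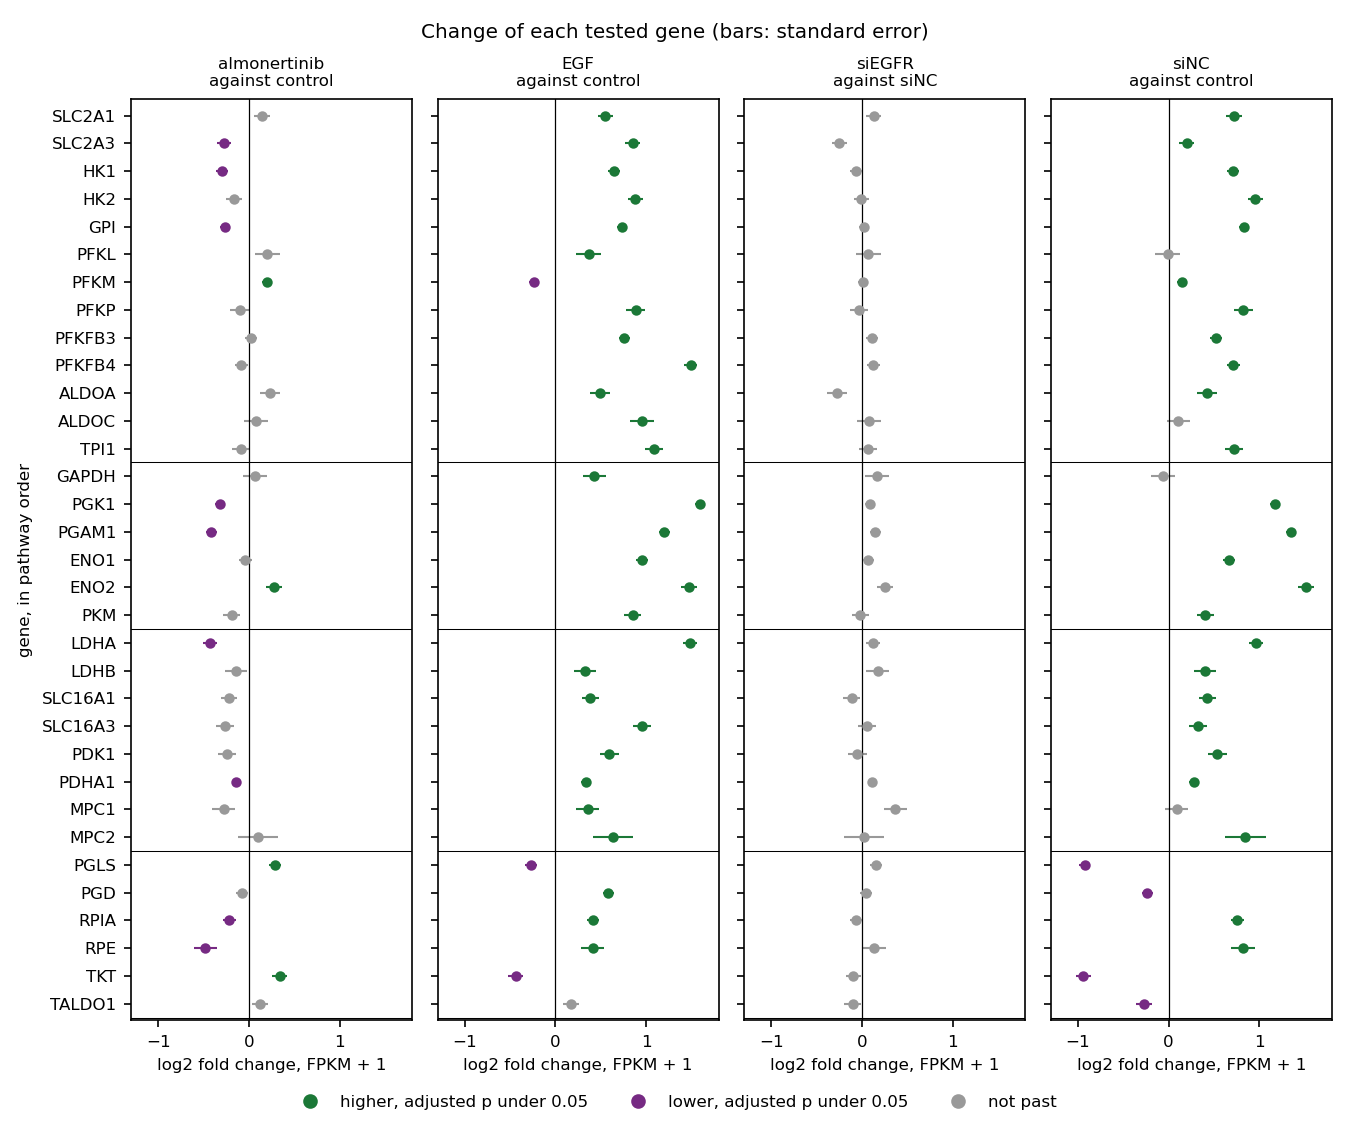
Log2 fold change of each tested gene (rows, in pathway order) in 4 comparisons, with bars of 1 standard error from limma and colour by adjusted p. With EGF 29 of 33 genes rose, with almonertinib 4 rose and 9 fell, with siEGFR none passed, and with siNC 25 rose and 4 fell.

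Glucose transport was carried by SLC2A1 and SLC2A3. SLC2A1, the basal glucose transporter of many cells, averaged 20.5 ± 2.40 with almonertinib, 27.4 ± 1.37 with EGF, 33.8 ± 0.882 with siEGFR, 30.9 ± 1.45 with siNC and 18.4 ± 1.93 FPKM in control (SD, n = 3 each). With EGF it rose by 0.55 ± 0.09 (adjusted p = 0.000157). SLC2A3, a high-affinity transporter best known from neurons, averaged 8.998 ± 0.824 with almonertinib, 20.9 ± 2.21 with EGF, 10.7 ± 0.103 with siEGFR, 12.9 ± 0.290 with siNC and 11.1 ± 0.790 FPKM in control. It rose by 0.85 ± 0.08 (adjusted p = 1.56e-06) with EGF. SLC2A1 was highest with siEGFR and then siNC, without overlap, while the SLC2A3 libraries with siEGFR overlapped control.

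Both hexokinases were expressed. HK1 (ENSG00000156515), the widespread isoform, was at 20.6, 21.1 and 19.1 FPKM with almonertinib, 40.2, 41.8 and 37.9 FPKM with EGF, 39.1, 40.7 and 39.7 FPKM with siEGFR, 41.8, 42.8 and 40.9 FPKM with siNC and 22.5, 26.8 and 26.3 FPKM in control. The EGF, siEGFR and siNC libraries all lay above every control library, and the almonertinib libraries all lay below. Against control HK1 rose by 0.65 ± 0.07 (adjusted p = 3.58e-06) with EGF. HK2 (ENSG00000159399), the inducible isoform of muscle and many tumours, was at 12.5, 11.4 and 9.47 FPKM with almonertinib, 25.9, 23.6 and 22.3 FPKM with EGF, 24.9, 24.8 and 25.4 FPKM with siEGFR, 24.8, 25.8 and 24.9 FPKM with siNC and 12.1, 13.6 and 11.9 FPKM in control. It showed the same order, with almonertinib and control overlapping. With EGF it rose by 0.88 ± 0.08 (adjusted p = 2.25e-06). GPI, which turns glucose 6-phosphate into fructose 6-phosphate, averaged 13.7 ± 0.330 with almonertinib, 28.2 ± 1.26 with EGF, 30.7 ± 0.627 with siEGFR, 30.3 ± 1.11 with siNC and 16.6 ± 1.17 FPKM in control and rose by 0.73 ± 0.06 (adjusted p = 2.47e-07) with EGF.

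The 3 phosphofructokinase genes did not move alike. PFKP (ENSG00000067057), the platelet-type isoform, was at 25.5, 27.8 and 22.5 FPKM with almonertinib, 47.6, 56.7 and 48.8 FPKM with EGF, 45.9, 49.0 and 47.8 FPKM with siEGFR, 48.4, 50.7 and 47.2 FPKM with siNC and 23.3, 31.3 and 27.3 FPKM in control. Its EGF, siEGFR and siNC libraries lay above all control libraries, and EGF raised it by 0.88 ± 0.10 (adjusted p = 1.12e-05). PFKL (ENSG00000141959), the liver-type isoform, was at 31.9, 35.8 and 25.1 FPKM with almonertinib, 31.8, 40.2 and 32.0 FPKM with EGF, 27.3, 28.3 and 27.5 FPKM with siEGFR, 25.8, 28.1 and 25.3 FPKM with siNC and 22.1, 31.7 and 26.6 FPKM in control. The almonertinib libraries spread widely and overlapped every other group, while EGF lay above control. Its change with EGF was 0.37 ± 0.14 (adjusted p = 0.0410), and it lost the threshold under 12 of the 25 alternatives, among them without control 1 (0.24, adjusted p = 0.158) and without EGF 2 (0.26, adjusted p = 0.160). PFKM (ENSG00000152556), the muscle-type isoform, was at 19.7, 18.8 and 17.9 FPKM with almonertinib, 13.6, 14.1 and 13.2 FPKM with EGF, 17.7, 18.9 and 18.1 FPKM with siEGFR, 18.0, 18.7 and 17.5 FPKM with siNC and 15.4, 17.0 and 16.3 FPKM in control. EGF libraries were the lowest of all and almonertinib libraries lay above control. PFKM fell by 0.24 ± 0.05 with EGF (adjusted p = 0.00269) and rose by 0.20 ± 0.05 (adjusted p = 0.0147) with almonertinib.

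PFKFB3 and PFKFB4 make and break fructose 2,6-bisphosphate, an activator of phosphofructokinase. PFKFB4 (ENSG00000114268) was at 5.10, 4.88 and 4.29 FPKM with almonertinib, 15.8, 17.0 and 15.5 FPKM with EGF, 10.01, 9.89 and 9.59 FPKM with siEGFR, 8.99, 9.80 and 8.14 FPKM with siNC and 4.83, 5.45 and 4.99 FPKM in control. EGF libraries stood above every other library, the siRNA groups in between, and control and almonertinib overlapped at the bottom. Its increase with EGF was 1.49 ± 0.07 (adjusted p = 4.20e-09), the second largest of the 33. PFKFB3 averaged 9.31 ± 0.797 with almonertinib, 16.2 ± 0.815 with EGF, 14.7 ± 0.337 with siEGFR, 13.6 ± 0.123 with siNC and 9.15 ± 0.681 FPKM in control and rose by 0.76 ± 0.06 (adjusted p = 7.20e-07) with EGF.

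Aldolase cuts fructose 1,6-bisphosphate into a pair of trioses. ALDOC (ENSG00000109107), the brain-type isoform, was at 21.5, 23.4 and 18.3 FPKM with almonertinib, 36.1, 44.4 and 37.9 FPKM with EGF, 22.3, 22.6 and 23.1 FPKM with siEGFR, 21.3, 21.96 and 21.0 FPKM with siNC and 15.6, 24.4 and 20.4 FPKM in control. EGF libraries stood above all others, and the almonertinib libraries overlapped each remaining group. EGF raised it by 0.95 ± 0.13 (adjusted p = 5.00e-05). ALDOA (ENSG00000149925), the muscle-type and usually most common isoform, was at 6.47, 6.80 and 6.33 FPKM with almonertinib, 7.61, 8.83 and 7.58 FPKM with EGF, 7.44, 5.47 and 5.46 FPKM with siEGFR, 8.73, 7.03 and 7.08 FPKM with siNC and 5.05, 5.15 and 6.05 FPKM in control. Its EGF libraries lay above control and overlapped siNC. The change with EGF was 0.49 ± 0.11 (adjusted p = 0.00249). In the GENCODE v29 annotation 42.3% of the exon bases of ALDOA are shared with another locus on the same strand, AC093512.2, itself listed at 0.967 FPKM. The part of this sharing in the low level of ALDOA was not tested. TPI1, which interconverts the trioses, averaged 149 ± 5.21 with almonertinib, 338 ± 32.6 with EGF, 275 ± 7.12 with siEGFR, 262 ± 7.11 with siNC and 160.2 ± 25.6 FPKM in control and rose by 1.1 ± 0.10 with EGF (adjusted p = 1.56e-06). Its 4 named pseudogenes summed to 5.81% of its level.

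In the lower steps PGK1, ENO2 and PGAM1 had the largest changes with EGF and GAPDH the smallest. PGK1 (ENSG00000102144), which makes the first ATP of the pathway, was at 85.1, 75.6 and 86.4 FPKM with almonertinib, 302, 317 and 318 FPKM with EGF, 242, 249.6 and 252 FPKM with siEGFR, 231, 233 and 233 FPKM with siNC and 98.1, 105 and 105 FPKM in control. The EGF libraries stood highest, then siEGFR, then siNC, then control, and the almonertinib libraries stood lowest, with no overlap between any of these groups. EGF raised PGK1 by 1.59 ± 0.06 (adjusted p = 3.28e-10), the largest change of the 33 genes. PGAM1 (ENSG00000171314), which moves the phosphate of phosphoglycerate, was at 44.1, 40.6 and 41.9 FPKM with almonertinib, 125, 139 and 129.6 FPKM with EGF, 156, 164 and 163 FPKM with siEGFR, 136, 151 and 149.7 FPKM with siNC and 54.7, 58.9 and 55.9 FPKM in control. The siEGFR libraries lay above all others, siNC and EGF overlapped, control lay below them, and almonertinib was lowest without overlap. Its increase with EGF was 1.20 ± 0.06 (adjusted p = 4.22e-09).

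GAPDH, often used as a reference gene, was at 1392, 1509.9 and 1198 FPKM with almonertinib, 1569, 1970.3 and 1729 FPKM with EGF, 1333, 1446 and 1418 FPKM with siEGFR, 1193, 1349.6 and 1199.5 FPKM with siNC and 1075, 1563 and 1305 FPKM in control. The EGF libraries lay above every other library and the other groups overlapped each other. Its change with EGF was 0.43 ± 0.13 (adjusted p = 0.0146) and missed the threshold in a fit of EGF and control alone, without control 1 (0.29, adjusted p = 0.0581) or EGF 2 (0.34, adjusted p = 0.0620). The level of PGK1 relative to GAPDH was 0.0611 ± 0.0110 with almonertinib, 0.179 ± 0.0162 with EGF, 0.177 ± 0.00453 with siEGFR, 0.187 ± 0.0120 with siNC and 0.0797 ± 0.0119 in control. GAPDH has 62 named pseudogenes, which summed to 1.53% of its level.

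Enolase was almost wholly ENO1. ENO1 (ENSG00000074800), the widespread isoform, was at 361, 364 and 348 FPKM with almonertinib, 661, 764 and 711 FPKM with EGF, 600.4, 620.3 and 607 FPKM with siEGFR, 581, 594 and 570.0 FPKM with siNC and 333, 393 and 377 FPKM in control. EGF libraries were highest, the siRNA groups next, and control and almonertinib overlapped. EGF raised it by 0.95 ± 0.07 (adjusted p = 1.30e-07). ENO2 (ENSG00000111674), the neuron-type isoform, was at 5.69, 6.19 and 4.63 FPKM with almonertinib, 14.1, 14.1 and 13.2 FPKM with EGF, 17.0, 17.1 and 17.3 FPKM with siEGFR, 13.9, 14.6 and 14.2 FPKM with siNC and 3.81, 4.98 and 4.25 FPKM in control. It was highest with siEGFR, and siNC and EGF libraries lay together, all above control and almonertinib, which overlapped. EGF raised it by 1.47 ± 0.09 (adjusted p = 3.29e-08). PKM, the pyruvate kinase gene of most tissues, averaged 282 ± 23.0 with almonertinib, 579.8 ± 59.8 with EGF, 418 ± 5.05 with siEGFR, 424 ± 11.4 with siNC and 322 ± 39.1 FPKM in control and rose by 0.85 ± 0.09 (adjusted p = 7.76e-06) with EGF. FPKM per gene does not separate the M1 and M2 splice forms of PKM.

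**Figure D3:**
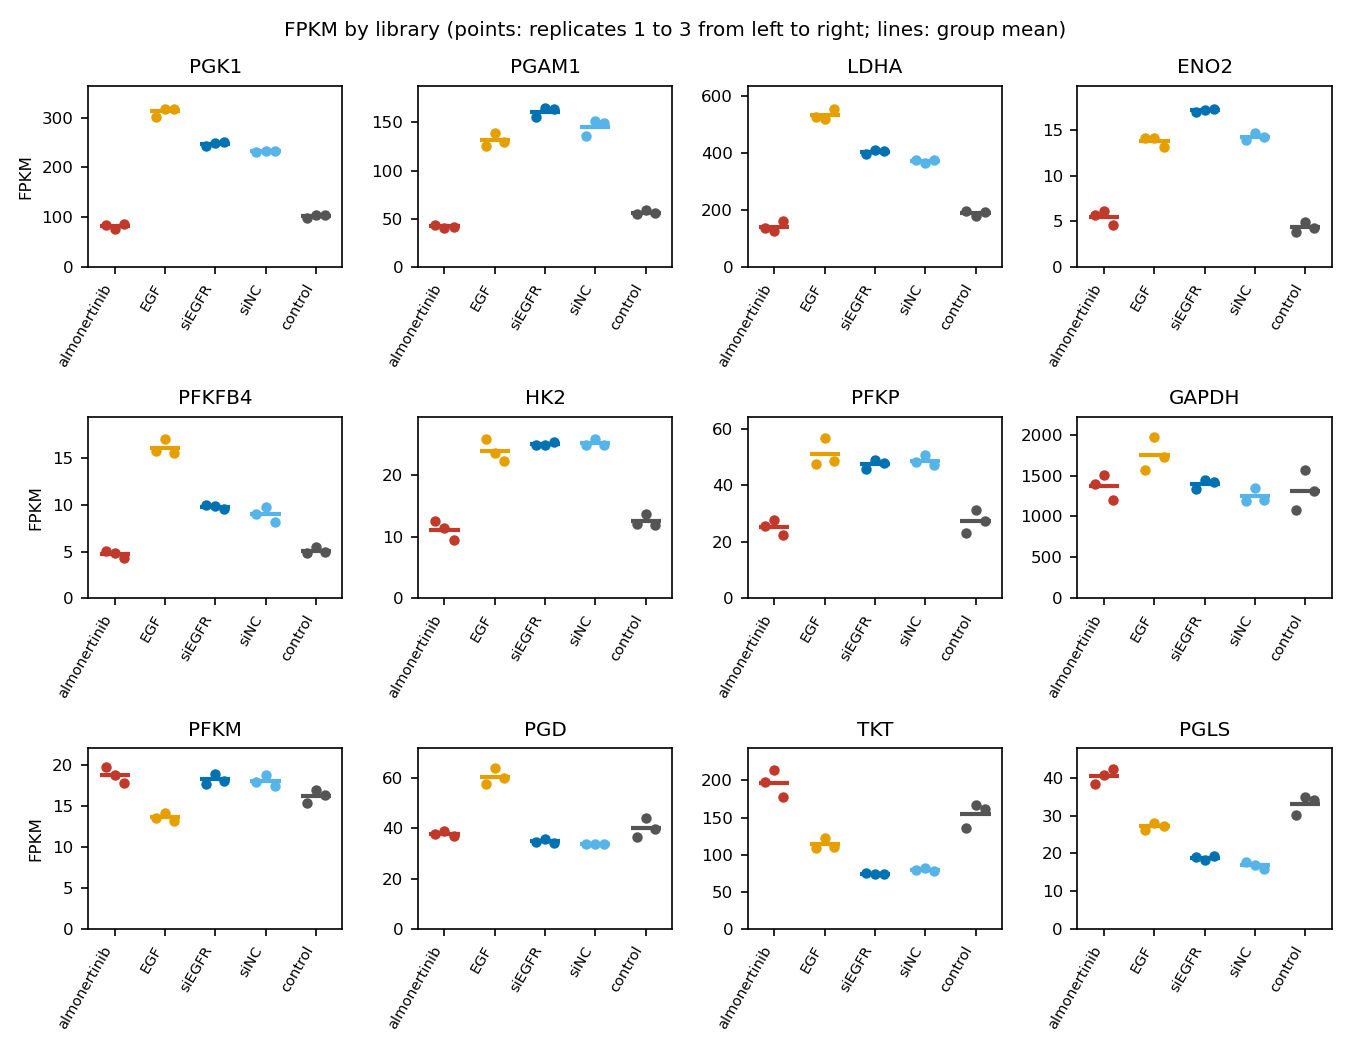
FPKM of 12 genes in each library (1 point per library, line at the group mean, axes from 0). PGK1, LDHA and PFKFB4 are highest with EGF, PGAM1 and ENO2 with siEGFR, and TKT and PGLS with almonertinib, where TKT averaged 196 FPKM against 155 FPKM in control.

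Lactate dehydrogenase was nearly all LDHA. LDHA (ENSG00000134333), the isoform that favours lactate, was at 137, 127 and 162 FPKM with almonertinib, 526, 519 and 556 FPKM with EGF, 395, 410.2 and 409 FPKM with siEGFR, 376, 366 and 376 FPKM with siNC and 198, 178 and 195 FPKM in control. The order was EGF, siEGFR, siNC, control and almonertinib, with no overlap between these groups. EGF raised LDHA by 1.48 ± 0.08 (adjusted p = 7.74e-09). LDHB (ENSG00000111716), the heart-type isoform, was at 0.349, 0.332 and 0.865 FPKM with almonertinib, 1.11, 0.977 and 1.13 FPKM with EGF, 1.31, 1.59 and 1.49 FPKM with siEGFR, 1.20, 1.16 and 1.20 FPKM with siNC and 0.763, 0.423 and 0.800 FPKM in control. The order was siEGFR, siNC, EGF and then control with almonertinib, which overlapped each other only. Its change with EGF was 0.33 ± 0.12 (adjusted p = 0.0434) and lost the threshold under 14 of the 25 alternatives. In GENCODE v29 33.4% of the exon bases of LDHB are shared with AC010197.2 on the same strand, which is listed at 0 FPKM, and 3 named pseudogenes summed to 70.2% of its level. The part of either in the low level of LDHB was not tested.

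The lactate exporters also rose with EGF. SLC16A3, an exporter of highly glycolytic cells, averaged 18.7 ± 2.51 with almonertinib, 44.6 ± 3.87 with EGF, 29.6 ± 0.355 with siEGFR, 28.4 ± 1.48 with siNC and 22.5 ± 2.51 FPKM in control and rose by 0.96 ± 0.10 (adjusted p = 3.92e-06). SLC16A1, which carries lactate in both directions, averaged 20.3 ± 1.79 with almonertinib, 31.3 ± 1.85 with EGF, 29.6 ± 0.810 with siEGFR, 32.2 ± 1.26 with siNC and 23.9 ± 3.69 FPKM in control and rose by 0.38 ± 0.09 (adjusted p = 0.00391). Pyruvate entry was at lower levels. MPC1 and MPC2, the subunits of the mitochondrial pyruvate carrier, averaged 12.1 and 5.68 FPKM with EGF, against 9.40 and 3.37 FPKM in control. Their changes were 0.35 ± 0.12 (adjusted p = 0.0301) and 0.63 ± 0.22 (adjusted p = 0.0313), and each lost the threshold without control 2, control 3, EGF 1 or EGF 3. PDHA1, the catalytic alpha subunit of pyruvate dehydrogenase, rose by 0.33 ± 0.05 (adjusted p = 6.05e-05). PDK1, a kinase that switches that enzyme off, was at 2.63, 1.99 and 2.35 FPKM with EGF, against 1.59, 0.932 and 1.11 FPKM in control, and rose by 0.60 ± 0.10 (adjusted p = 0.000306). Strandedness is not given in the sources used here, and 21.3% of the exon bases of PDHA1, 22.5% of MPC2 and 23.8% of RPE overlap a gene on the other strand in GENCODE v29, so reads of such pairs cannot be told apart.

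The pentose phosphate genes split between the arms and within them. TKT (ENSG00000163931), the transketolase of the non-oxidative arm, was at 198, 215 and 177 FPKM with almonertinib, 109, 123 and 111 FPKM with EGF, 75.9, 74.3 and 74.4 FPKM with siEGFR, 80.0, 82.6 and 77.8 FPKM with siNC and 137, 167 and 162 FPKM in control. Almonertinib libraries were highest, then control, then EGF, then siNC, then siEGFR, without overlap between these groups. TKT fell by 0.44 ± 0.08 with EGF (adjusted p = 0.000722). PGLS, the lactonase of the oxidative arm, averaged 40.4 ± 1.95 with almonertinib, 27.2 ± 0.882 with EGF, 18.9 ± 0.620 with siEGFR, 16.9 ± 1.01 with siNC and 33.1 ± 2.58 FPKM in control. It fell by 0.27 ± 0.06 with EGF (adjusted p = 0.00339). PGD, which makes NADPH and ribulose 5-phosphate, averaged 38.0 ± 1.083 with almonertinib, 60.5 ± 3.19 with EGF, 34.9 ± 0.973 with siEGFR, 33.9 ± 0.112 with siNC and 40.1 ± 3.78 FPKM in control. EGF raised it by 0.58 ± 0.06 (adjusted p = 5.89e-06), and its EGF libraries stood above all others.

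RPE (ENSG00000197713), which turns ribulose 5-phosphate into xylulose 5-phosphate, was at 6.14, 4.59 and 6.82 FPKM with almonertinib, 12.0, 10.3 and 12.4 FPKM with EGF, 17.6, 16.9 and 17.5 FPKM with siEGFR, 14.5, 16.0 and 16.4 FPKM with siNC and 10.5, 7.52 and 7.64 FPKM in control. The siRNA libraries were highest and the almonertinib libraries all lay below control, while EGF and control overlapped. Its change with EGF was 0.41 ± 0.13 (adjusted p = 0.0184), lost without control 2, control 3, EGF 1 or EGF 3. RPIA, which makes ribose 5-phosphate, averaged 6.45 ± 0.343 with almonertinib, 10.5 ± 0.834 with EGF, 12.9 ± 0.234 with siEGFR, 13.6 ± 0.709 with siNC and 7.66 ± 0.628 FPKM in control and rose by 0.41 ± 0.07 (adjusted p = 0.000239). TALDO1, the transaldolase, averaged 57.0 ± 4.53 with almonertinib, 59.1 ± 6.32 with EGF, 40.0 ± 0.599 with siEGFR, 43.1 ± 1.87 with siNC and 52.5 ± 5.85 FPKM in control, and its change with EGF was 0.17 ± 0.09 (adjusted p = 0.138), not past the threshold. The level of TKT relative to TALDO1 was 3.44 ± 0.0895 with almonertinib, 1.94 ± 0.0808 with EGF, 1.87 ± 0.0491 with siEGFR, 1.86 ± 0.0586 with siNC and 2.96 ± 0.0293 in control. That of PGD relative to TKT was 0.194 ± 0.0136 with almonertinib, 0.530 ± 0.0113 with EGF, 0.467 ± 0.0155 with siEGFR, 0.423 ± 0.0123 with siNC and 0.259 ± 0.0106 in control.

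TIGAR, a phosphatase that lowers fructose 2,6-bisphosphate and so favours the pentose phosphate pathway, was barely detected. Its reads numbered 4, 6 and 5 with almonertinib, 60, 36 and 82 with EGF, 68, 66 and 49 with siEGFR, 50, 60 and 98 with siNC and 21, 19 and 16 in control. The almonertinib counts were the lowest and those of the other treated groups were above control. In FPKM it averaged 0.0253 ± 0.00388 with almonertinib, 0.232 ± 0.0622 with EGF, 0.286 ± 0.0326 with siEGFR, 0.294 ± 0.0257 with siNC and 0.102 ± 0.00666 FPKM in control. In GENCODE v29 42.6% of its exon bases are shared with AC008012.1 on the same strand, listed at 0 FPKM, and the part of this in its level was not tested.

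The changes with almonertinib went both ways and were small. Against control 4 genes rose and 9 fell of 33, while 12.1% of all tested loci rose and 18.0% fell, 30.1% in all. The median change was -0.10 for these genes and -0.06 for all tested loci. Both medians moved with scaling, to -0.19 and -0.15 under TPM and to -0.017 and 0.0029 under median-ratio scaling, and without almonertinib 3 they were -0.06 and -0.09. The 4 and 9 of 33 are near the shares of all loci and are not a result about these genes. RPE, whose libraries are given above, fell most, at -0.48 ± 0.13 (adjusted p = 0.0154). LDHA came next at -0.43 ± 0.08 (adjusted p = 0.00146), then PGAM1 at -0.41 ± 0.06 (adjusted p = 0.000283) and PGK1 at -0.32 ± 0.06 (adjusted p = 0.00122); for all of these the almonertinib libraries lay below every control library. HK1, SLC2A3, GPI, RPIA and PDHA1 fell by 0.30, 0.28, 0.26, 0.22 and 0.14. TKT rose most, by 0.34 ± 0.08 (adjusted p = 0.00945), followed by PGLS at 0.29 ± 0.06 (adjusted p = 0.00591), ENO2 at 0.28 ± 0.09 (adjusted p = 0.0310) and PFKM at 0.20 ± 0.05 (adjusted p = 0.0147). None reached 2-fold.

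The call of PGAM1 passed under all 25 alternatives and no other almonertinib call did. In a fit of the 6 almonertinib and control libraries alone 0 rose and 1 fell. After scaling to TPM 2 rose and 15 fell, and after median-ratio scaling 4 rose and 5 fell. The share of increases among all almonertinib calls was 40.2%, and 22.0% and 50.3% under those scalings. Without almonertinib 1, or without control 1, 2 of the 4 increases passed. RPE lost the threshold without almonertinib 2 (-0.34, adjusted p = 0.0685) or control 1 (-0.34, adjusted p = 0.0637). ENO2 lost it without almonertinib 1, almonertinib 2, control 1 or control 3. The 9 genes that fell with almonertinib all rose with EGF, and of the 4 that rose ENO2 rose and PFKM, PGLS and TKT fell with EGF. Both comparisons share the control libraries, so this count is a description.

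In the direct comparison of almonertinib with EGF the fold changes do not use the control libraries, though these enter the estimate of spread. Of 33 genes 26 were lower and 3 higher with almonertinib, while 32.6% and 30.0% of all tested loci were, 62.6% in all. The median change was -0.83 for these genes and -0.03 for all tested loci. PGK1 (-1.91 ± 0.06), LDHA (-1.91 ± 0.08), PGAM1 (-1.61 ± 0.06) and PFKFB4 (-1.57 ± 0.07) were lower by most, and 10 genes were at least 2-fold lower. TKT (0.78 ± 0.08), PGLS (0.56 ± 0.06) and PFKM (0.44 ± 0.05) were higher. Of these calls, all except GAPDH passed under every alternative that tested them. GAPDH, at -0.36 ± 0.13 (adjusted p = 0.0265), lost the threshold with no filter, after median-ratio scaling, and without almonertinib 3, EGF 2 or EGF 3 (lowest adjusted p there 0.0546). Of the 4 genes not past, PFKL, ALDOA, MPC2 and TALDO1 had changes of -0.17, -0.26, -0.53 and -0.05.

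The siRNA against EGFR changed none of the 33 genes past the threshold relative to siNC. Among all tested loci 2.27% rose and 3.19% fell, 5.46% in all. An unadjusted p under 0.05 was found for 2576 of all 14999 tested loci and for 7 of the 33 genes. Changes lay between -0.28 (ALDOA) and 0.37 (MPC1), with standard errors of 0.05 (PDHA1) to 0.22 (MPC2). Those of ENO2 and SLC2A3 were 0.25 ± 0.09 (adjusted p = 0.140) and -0.25 ± 0.08 (adjusted p = 0.0949). A p that misses the threshold does not show that the groups were alike. All siEGFR libraries lay above all siNC libraries for 14 genes and below for 5, against 22.7% and 17.9% of all tested loci. LDHA was at 395, 410.2 and 409 FPKM with siEGFR, against 376, 366 and 376 FPKM with siNC, a change of 0.12 ± 0.08.

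These groups varied little within themselves: the median SD of a gene in log2 units was 0.0510 with siEGFR and 0.0598 with siNC, against 0.138 with almonertinib, 0.106 with EGF and 0.146 in control. In a fit of the 6 siRNA libraries alone 6 genes rose, ENO2, MPC1, LDHA, PDHA1, PFKFB3 and PGK1, and SLC2A3 fell. Of all 14999 tested loci 1617 rose and 1463 fell in that fit. There the adjusted p was 0.00217 for ENO2, 0.00162 for MPC1 and 0.00230 for SLC2A3, at the same changes. Limma-voom on the recovered reads of all libraries called 0 in either direction. Of all siEGFR calls 41.5% were increases, and 33.3% after median-ratio scaling, where SLC2A3 fell. Without control 1 and almonertinib 3 together 2 genes rose. Leaving out almonertinib 3 or control 1 gave 1 that rose (ENO2 in one case and MPC1 in the other), and leaving out EGF 2 (SLC2A3) or siEGFR 1 (ALDOA) gave 1 that fell.

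The 2 baselines, siNC and control, differed at most of these genes. Against control, siNC cells had 25 genes higher and 4 lower of 33, while 34.4% of all tested loci were higher and 31.6% lower, 66% in all. Transfection and any other difference in handling cannot be told apart in this comparison, in which the fibroblast and leukocyte marker sums were also lower with siNC; their part was not tested. The median change was 0.53 for the 33 genes and 0.03 for all tested loci. ENO2 (1.52 ± 0.09), PGAM1 (1.35 ± 0.06), PGK1 (1.17 ± 0.06), LDHA (0.96 ± 0.08) and HK2 (0.95 ± 0.08) changed most, with adjusted p of 8.12e-09, 4.47e-10, 1.10e-09, 1.58e-07 and 4.59e-07. In the upper steps 11 of 13 were higher and 0 lower, in the lower steps 5 of 6, and in lactate and pyruvate 7 of 8. The pentose phosphate branch again split: RPIA (0.76 ± 0.07) and RPE (0.82 ± 0.13) were higher, and TKT (-0.94 ± 0.08), PGLS (-0.93 ± 0.06), TALDO1 (-0.27 ± 0.09) and PGD (-0.23 ± 0.06) were lower. PGD and TALDO1 lost the threshold after median-ratio scaling, as did TALDO1 without control 2, control 3 or siNC 3. GAPDH was not past, at -0.06 ± 0.13.

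A change with EGF was set against a change with siEGFR by the difference of the effects, which share no library. The EGF effect exceeded the siEGFR effect for 23 of 33 genes and lay below it for 3, while 17.0% and 21.3% of all tested loci did, 38.3% in all. All 23 passed under every alternative that tested them, and none of the 3 did. The 3 became 1 without EGF 3, siNC 3 or siEGFR 2. Of all calls 44.4% were positive, and 60.5% after median-ratio scaling. The differences were largest for PGK1 (1.5 ± 0.08), PFKFB4 (1.37 ± 0.10), LDHA (1.36 ± 0.11) and ENO2 (1.22 ± 0.13). The almonertinib effect exceeded the siEGFR effect for TKT and ALDOA and lay below it for 7 genes, while 5.95% and 7.71% of all tested loci did, 13.7% in all. Of all calls 43.5% were positive, and 24.3% under TPM and 56.3% under median-ratio scaling. Of the 7, PGAM1 at -0.56 ± 0.08 (adjusted p = 0.000892) and LDHA at -0.55 ± 0.11 (adjusted p = 0.00558) passed under all 25 alternatives. The 7 became 3 without siNC 1, siNC 3, siEGFR 2 or siEGFR 3, and 4 without almonertinib 1, almonertinib 2 or siEGFR 1. Neither TKT nor ALDOA passed without almonertinib 1, almonertinib 2, siNC 1, siNC 2, siEGFR 2 or siEGFR 3, and 1 of them passed without control 1, control 2, EGF 1, EGF 3, siNC 3 or siEGFR 1.

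Isoform choice was compared as the share of an isoform gene in the summed FPKM of its family. This ratio within a library does not depend on library scaling. It does depend on the gene lengths used, so which isoform leads carries the limit on lengths given above. With 3 libraries a group the exact two-sided permutation test cannot go below p = 0.1, and after adjustment over the 50 tests none came below 0.152, so shares are described by their spread. By these FPKM values the order of the phosphofructokinase family differed between groups. PFKP led by mean share with EGF, siEGFR and siNC, PFKL led with almonertinib, and both were close in control. The length behind the values was 7728 bases for PFKP, against 4836 exon bases in GENCODE v29, and 8926 bases in both for PFKL. With the shorter length PFKP would have a larger share in every group, so the order depends on the length used. PFKP made up 33.7 ± 0.699% with almonertinib, 51.4 ± 0.428% with EGF, 50.9 ± 0.311% with siEGFR, 52.3 ± 0.254% with siNC and 38.8 ± 0.446% in control (SD, n = 3 each). PFKM made up 25.2 ± 2.24% with almonertinib, 13.8 ± 0.968% with EGF, 19.5 ± 0.171% with siEGFR, 19.4 ± 0.160% with siNC and 23.3 ± 2.03% in control. For PFKP the EGF libraries lay above control and the almonertinib libraries below without overlap. PFKL made up 41.0 ± 2.59% with almonertinib, 34.9 ± 1.19% with EGF, 29.6 ± 0.334% with siEGFR, 28.3 ± 0.412% with siNC and 38.0 ± 1.60% in control.

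By FPKM, HK1, ALDOC, ENO1 and LDHA led their families in every group. HK2 made up 35.3 ± 2.28% with almonertinib, 37.4 ± 1.59% with EGF, 38.6 ± 0.622% with siEGFR, 37.6 ± 0.291% with siNC and 33.3 ± 1.95% in control. ALDOC made up 76.2 ± 1.68% with almonertinib, 83.1 ± 0.450% with EGF, 78.8 ± 3.31% with siEGFR, 73.8 ± 2.55% with siNC and 78.4 ± 3.68% in control, with the limit on ALDOA given above. ENO2 made up 1.51 ± 0.182% with almonertinib, 1.91 ± 0.156% with EGF, 2.73 ± 0.0445% with siEGFR, 2.39 ± 0.0487% with siNC and 1.16 ± 0.0742% in control, and its share was higher in every siEGFR library than in any siNC library and in every EGF library than in any control library. LDHB made up 0.349 ± 0.158% with almonertinib, 0.200 ± 0.0112% with EGF, 0.360 ± 0.0284% with siEGFR, 0.317 ± 0.00151% with siNC and 0.343 ± 0.0927% in control, with the limits on LDHB given above. PFKFB4 made up 33.8 ± 0.605% with almonertinib, 49.9 ± 1.91% with EGF, 40.0 ± 1.01% with siEGFR, 39.7 ± 2.42% with siNC and 35.8 ± 2.73% in control of PFKFB3 and PFKFB4 together, and was near parity with PFKFB3 with EGF. SLC2A3 made up 30.6 ± 4.10% with almonertinib, 43.2 ± 3.66% with EGF, 24.0 ± 0.409% with siEGFR, 29.4 ± 1.39% with siNC and 37.7 ± 4.21% in control of the transporter pair. SLC16A3 made up 47.9 ± 5.50% with almonertinib, 58.7 ± 3.43% with EGF, 49.97 ± 0.428% with siEGFR, 46.9 ± 2.26% with siNC and 48.7 ± 6.63% in control of the lactate carrier pair.

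**Figure D4:**
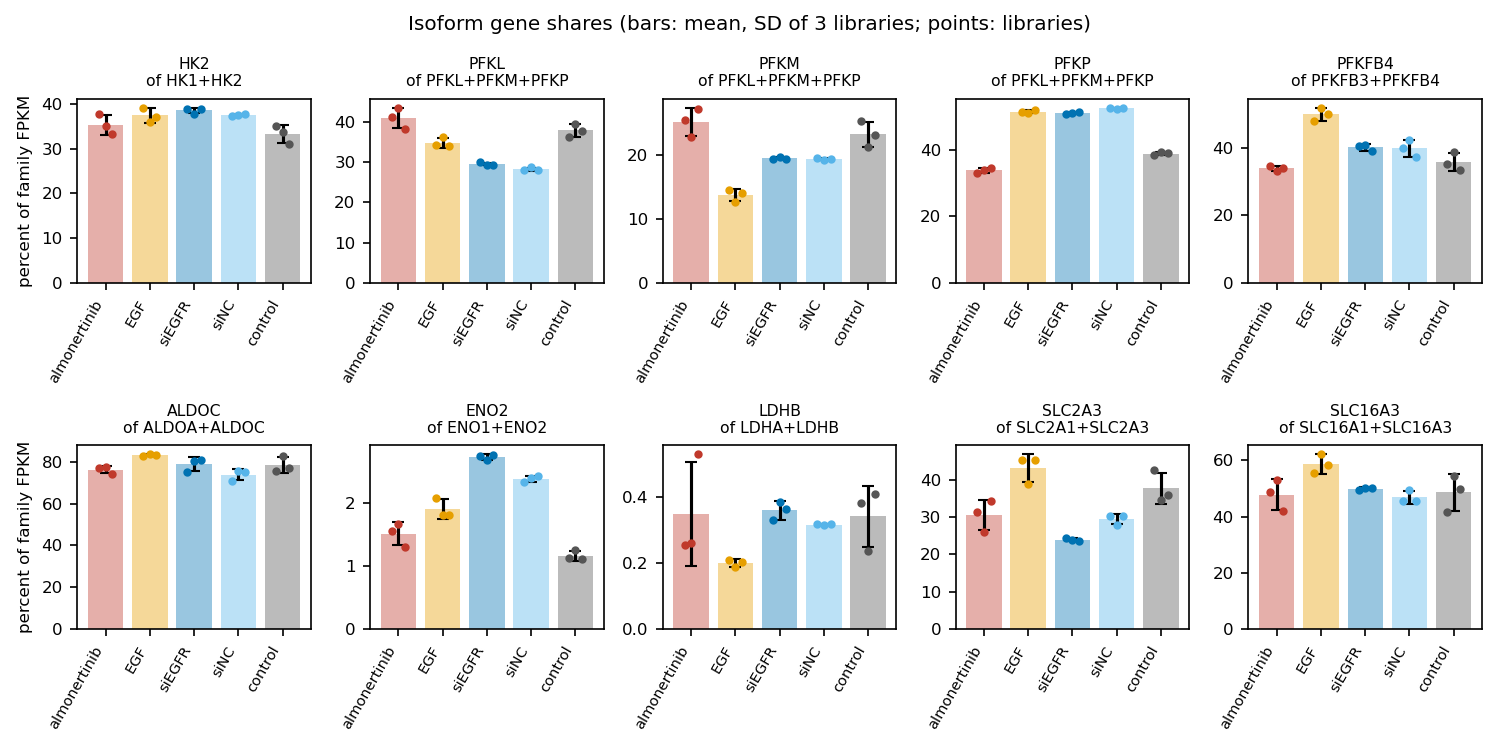
Share of an isoform gene in the summed FPKM of its family, in percent, for 10 genes (bars: mean of 3 libraries; lines: SD; points: libraries). PFKP makes up 51.4% of phosphofructokinase FPKM with EGF and 33.7% with almonertinib, against 38.8% in control.

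Other genes of the same pathways changed in both directions with EGF, where 22.0% of all tested loci rose and 27.3% fell. Of 11 further glucose transport and hexokinase genes 6 were tested, of which 3 rose and 2 fell: SLC2A12 (-1.07), HKDC1 (0.93) and SLC2A6 (0.80) changed most. HKDC1, a hexokinase-like gene, averaged 18.9 ± 1.42 FPKM with EGF, against 9.43 ± 0.751 FPKM in control. Of 16 further glycolytic and hexose genes 11 were tested, 6 rose and 1 fell, with PGAM4 (0.84), PGAM5 (0.64) and PGM2L1 (0.60) changing most. PGAM5 carries the family name but is a protein phosphatase and not a glycolytic enzyme. It stays in the counts of this list here and below. Of 23 further lactate, pyruvate and gluconeogenic genes 20 were tested, 4 rose and 9 fell. The largest changes there were decreases of PDK4 (-1.23) and PDK2 (-1.16), further kinases of pyruvate dehydrogenase, and LDHD (-1.03), which acts on D-lactate. Of 9 further pentose phosphate genes 7 were tested: PRPS1 (0.82) and PRPS2 (0.26), which activate ribose for nucleotide synthesis, rose and H6PD (-0.63) fell.

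With almonertinib, where 12.1% of all tested loci rose and 18.0% fell, these lists gave 1 higher and 2 lower of 6 (SLC2A8 at 0.37, SLC2A6 at -0.42 and ADPGK at -0.21), 0 higher and 3 lower of 11 (GPD1L at -0.55, PGAM5 at -0.55 and PFKFB2 at -0.31), 4 higher and 8 lower of 20, and 0 higher and 1 lower of 7 (PRPS1 at -0.37). In the list of 20 the largest were LDHD (0.65), EMB (-0.60) and DLAT (-0.43), a subunit of pyruvate dehydrogenase. In lists of 6, 11 and 7 counts this small are no result about those genes. With siEGFR, where 2.27% of all tested loci rose and 3.19% fell, the lists gave 0 higher and 1 lower of 6 (SLC2A12 at -0.36), 0 and 1 of 11 (GPD1L at -0.38), 0 and 2 of 20 and 1 and 0 of 7 (PRPS1 at 0.30). FBP1, the gluconeogenic phosphatase that opposes phosphofructokinase, averaged 4.37 ± 0.223 FPKM with siEGFR and 8.91 ± 0.617 FPKM with siNC, a change of -0.88 ± 0.09 (adjusted p = 5.06e-05). ME2, a malic enzyme, was at -0.44.

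With siNC against control, where 34.4% of all tested loci were higher and 31.6% lower, the same lists gave 1 higher and 4 lower of 6, with SLC2A12 (-1.22), SLC2A6 (-0.74) and SLC2A8 (-0.69) the largest. They gave 6 higher and 1 lower of 11, with PGAM5 (1.65), PGAM4 (0.87) and PFKFB2 (0.70). In the list of 20 there were 6 higher and 10 lower, with PDK4 (-1.67), LDHD (-1.57) and PC (-1.44), the pyruvate carboxylase. In the list of 7 there were 4 higher and 1 lower, with H6PD (-0.89), PRPS2 (0.77) and PRPS1 (0.75).

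Among 15 regulators of glucose and oxygen response 13 were tested. With EGF 5 rose and 6 fell, beside 22.0% and 27.3% of all tested loci. MLXIPL, a glucose-sensing factor that binds carbohydrate response elements, fell by 2.50 ± 0.10 with EGF (adjusted p = 7.49e-10), to 1.27 ± 0.118 FPKM, against 11.8 ± 1.06 FPKM in control. MYC rose by 0.85 ± 0.04 (adjusted p = 8.04e-09), and EPAS1, a hypoxia-inducible factor, was at -0.72. With almonertinib 1 rose and 3 fell, beside 12.1% and 18.0% of all tested loci: MLXIPL was at 0.64, ARRDC4 at -0.58 and MYC at -0.31. With siEGFR 1 rose, EGLN3 (0.20), and 1 fell, EPAS1 (-0.29), beside 2.27% and 3.19% of all tested loci. With siNC against control 6 were higher and 4 lower, beside 34.4% and 31.6% of all tested loci, with MLXIPL (-2.42), HIF1A (0.92) and ARRDC4 (0.73) the largest. HIF1A, the oxygen-regulated factor of glycolytic genes, did not pass with EGF at 0.31 ± 0.17 (adjusted p = 0.140); its protein is controlled mainly by degradation.

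Because most members rose together with EGF, their promoter windows were searched for the cores of hypoxia response elements (ACGTG or GCGTG), the E-box that MYC family factors bind (CACGTG) and the carbohydrate response element that the MLXIPL protein binds (CACGTG, 5 bases of any kind, CACGTG), each on both strands. A window ran from 250 bases before to 50 bases after the transcription start in RefSeq, build GRCh38.p14, 1 window per gene. The first window listed for a gene was taken, and whether these cells use that start was not checked. Of the 34 genes 32 had a window, and SLC2A3 and SLC16A1 were not in the table used. Either core was in 20 of 32 windows (62.5%), against 48.4% of all 27305 windows. ACGTG was in 31.2% against 21.6%, GCGTG in 46.9% against 36.3% and CACGTG in 9.38% against 7.43%. The carbohydrate response element was in 0 of 32 windows and in 0.00732% of all. The median GC content was 70.0% in the 32 windows and 58.3% in all, and the part of base composition in the shares was not tested. A match is a stretch of letters, and binding was not measured.

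Windows are shown for LDHA and PGK1, which rose most in their branches with EGF and hold many matches, for PGAM1, which rose with no match, and for TKT, which fell with no match. Capitals mark ACGTG or GCGTG on either strand (CACGT or CACGC as printed), and a CACGTG counts on each strand. The LDHA window (chr11:18394313-18394612, plus strand) held 6 matches, 5 of them ACGTG, with 2 CACGTG. The PGK1 window (chrX:78103998-78104297, plus strand) held 4, of which 3 were ACGTG. Those of PGAM1 (chr10:97427568-97427867, plus strand) and TKT (chr3:53255973-53256272, minus strand) held 0. All are printed 5′ to 3′ along the gene.
LDHA: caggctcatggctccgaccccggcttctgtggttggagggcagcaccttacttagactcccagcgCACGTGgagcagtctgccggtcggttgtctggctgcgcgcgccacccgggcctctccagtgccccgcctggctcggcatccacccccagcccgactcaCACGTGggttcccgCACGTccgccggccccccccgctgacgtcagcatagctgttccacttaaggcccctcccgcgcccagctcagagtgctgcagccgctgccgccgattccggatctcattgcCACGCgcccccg
PGK1: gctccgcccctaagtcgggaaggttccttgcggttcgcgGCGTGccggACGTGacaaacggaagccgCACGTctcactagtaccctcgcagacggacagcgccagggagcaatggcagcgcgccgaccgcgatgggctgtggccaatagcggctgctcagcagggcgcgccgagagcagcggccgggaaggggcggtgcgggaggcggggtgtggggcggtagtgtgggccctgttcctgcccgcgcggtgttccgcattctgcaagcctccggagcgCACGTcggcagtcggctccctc
PGAM1: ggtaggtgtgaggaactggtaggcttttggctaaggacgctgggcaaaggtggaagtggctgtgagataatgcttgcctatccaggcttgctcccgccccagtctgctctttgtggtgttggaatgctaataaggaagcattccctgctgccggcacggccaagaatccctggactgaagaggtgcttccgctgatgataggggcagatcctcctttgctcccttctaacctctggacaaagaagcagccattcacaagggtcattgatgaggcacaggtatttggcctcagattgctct
TKT: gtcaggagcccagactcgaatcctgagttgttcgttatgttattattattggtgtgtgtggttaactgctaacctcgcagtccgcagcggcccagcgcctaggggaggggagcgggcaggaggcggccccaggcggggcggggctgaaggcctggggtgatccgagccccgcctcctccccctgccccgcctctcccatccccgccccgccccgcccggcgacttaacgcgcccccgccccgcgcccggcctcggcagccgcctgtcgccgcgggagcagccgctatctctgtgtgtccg
LDHA and PGK1 changed by 1.48 and 1.59 with EGF, PGAM1 by 1.20 and TKT by -0.44. These windows were picked by change and by number of matches, so they are examples only.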

How the data were processed

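The authors deposited FPKM values of 61248 loci in 15 libraries; hg19 is the build in the submitters' processing notes, which list DESeq2, featureCounts and HISAT2 with neither role nor version. Per the labels, RNA was enriched with oligo(dT) beads. FPKM values were whole multiples of a step per read, and from these steps reads were recovered (99.9912% of positive values whole within 0.01 reads). Symbols came from a list of gene names (60463 loci matched) and exon overlaps and pseudogenes from GENCODE v29 on another build, used without coordinates.

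The 14999 loci that reached 1 FPKM in 3 or more of 15 libraries were fitted as log2(FPKM + 1) with limma 3.58.1 in R 4.3.3, with trend and robust moderation, 1 coefficient per group and 10 residual degrees of freedom; the added 1 understates changes of low genes. Tests were two-sided with Benjamini-Hochberg adjustment over all tested loci and a threshold of 0.05. Rose, fell, higher and lower as verdicts of a test refer to that threshold. Shares were tested by exact permutation with scipy 1.17.1. The read recovery and the limma step were tested on simulated data. Python 3.11.15, numpy 2.4.6, pandas 2.3.3, matplotlib 3.10.9 and data.table (1.17.8) were also used.

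The 34 genes, the lists, the tests and the alternatives were chosen with earlier results of these data known, as textbook members of each step. PGAM5 was also listed, though it is not such a member. Isoform genes and the 5 largest called changes per comparison are given by library, and up to 3 of each further list by change. HIF1A and the further exceptions TPI1, GAPDH and TIGAR were named after their values were seen. 1 gene of the further lists is not reported here. Of the alternatives, limma-voom ran on recovered reads and 15 left out a library each. A planned comparison of protein sequences was not run.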

Additional observations from a re-analysis of the deposited data

How the results depend on the processing

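Of 25 alternatives, 10 changed a setting and 15 left out a library. No result reversed. Single genes kept their side of the threshold in 5499 cases, lost it in 201 and gained it in 61. Median changes moved by less than their spread in 105 of 125 cases, and isoform shares in all 350. Most of these 350 cases left out 1 of the 3 libraries of a group. Such a step cannot move a share by more than the spread used, so the count is no sign of stability. For almonertinib against control (4 rose, 9 fell), TPM scaling gave 2 and 15, median-ratio scaling 4 and 5, and the groups compared alone 0 and 1; leaving out a library gave 2 to 5 and 6 to 11. For EGF against control (29 and 3), median-ratio scaling gave 1 that fell, and leaving out a library 25 to 29 and 3. For siEGFR against siNC (0 and 0), the groups alone gave 6 and 1, median-ratio scaling 1 that fell, and removal of control 1 and almonertinib 3 together 2 that rose; leaving out a library gave 0 to 1 in each direction. For siNC against control (25 and 4), median-ratio scaling gave 2 that fell, and leaving out a library 23 to 25 and 3 to 4. For the almonertinib effect minus the siEGFR effect (2 and 7), no filter gave 0 and 4, TPM scaling 0 higher, median-ratio scaling 1 and 4, the groups alone 1 higher and removal of control 1 and almonertinib 3 together 1 higher; leaving out a library gave 0 to 2 and 3 to 8. For the EGF effect minus the siEGFR effect (23 and 3), median-ratio scaling gave 0 lower, and leaving out a library 23 to 24 and 1 to 3. TPM scaling moved the median of all loci in the almonertinib minus siEGFR difference to -0.18, against -0.07. The fit of compared groups alone has fewer samples and takes its spread from those groups only. For siEGFR against siNC it called 1617 loci higher and 1463 lower, beside 340 and 479 in the fit of all groups. The median SD of a gene in log2 units was 0.0510 with siEGFR and 0.0598 with siNC, against 0.138 with almonertinib, 0.106 with EGF and 0.146 in control. The cause of these and of the other shifts was not tested. Depth limits TIGAR (4 to 98 reads) most.

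Labels give every group replicate numbers 1 to 3. Same-numbered libraries did not deviate together throughout (correlations of -0.17 to 0.60), so the numbers were not used as pairs. Libraries numbered 2 of almonertinib, EGF and control did deviate together (0.53 to 0.60). So did EGF 1 with control 1 (0.55) and almonertinib 3 with EGF 3 (0.44). The other correlations lay between -0.17 and 0.22. With a replicate block, EGF against control gave 29 and 3, almonertinib 4 and 12, siEGFR 0 and 1 (SLC2A3, adjusted p = 0.0337) and siNC 25 and 4.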
